A study of Mus musculus with 16 samples.

Results

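The genes described here are those with H3K27me3, the trimethylation of lysine 27 on histone H3, in mouse induced pluripotent stem cells (iPSCs) that were reprogrammed from the proximal tubule of the kidney (PTC) or from fibroblasts of the tail tip (TTF). A gene was taken when its H3K27me3 value was above 0 in at least 1 of 4 ChIP-seq libraries, which gave 137 of 43984 genes listed, or 0.311%. In ChIP-seq, chromatin is pulled down with an antibody to the mark and its DNA is sequenced. The H3K27me3 values that chose the genes are given as a description, and presence or absence of so few peaks was not tested against the cell of origin.

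All lines came from littermate mice carrying SLC34a1-GFPCreERt2, tdTomato, rtTAROSA (neo-in) and OKMS-250, and the mice were fed tamoxifen. In these mice the promoter of SLC34a1, a phosphate transporter gene of proximal tubule cells, drives Cre, which opens a tdTomato reporter and the transactivator needed for doxycycline to induce Oct4, Klf4, c-Myc and Sox2. PTC were sorted as GFP and tdTomato positive cells, whereas TTF do not make this Cre and received it from an episomal plasmid, so that origin and the route of Cre cannot be told apart. Each line is 1 clone that no longer needed doxycycline, and each was profiled at early passage. H3K27me3 was measured in 2 libraries of line PTC11 and in 1 library each of lines TTF1 and TTF4, all with the same antibody. The labels name both PTC libraries as line PTC11, but a figure of the study names the second one PTC12. The methods describe ChIP of 2 PTC and 2 TTF lines, each in duplicate. The PTC libraries are called PTC11 library 1 and PTC11 library 2 here after the labels. Whether they are repeats of 1 line or come from 2 PTC lines is not settled. H3K4me3, H3K36me3 and CpG methylation by nanopore sequencing were measured in 1 sample each of PTC11, PTC12, TTF1 and TTF4. Replicates were therefore lines, with 2 per origin.

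H3K27me3 is written by Polycomb repressive complex 2 and marks genes that are kept silent. In pluripotent cells it lies mainly over CpG islands of genes for developmental transcription factors and signals, and many of these starts also carry H3K4me3, the mark of active starts, a state known as bivalent. The Hox genes, which set position along the body axis, stand in 4 clusters and are classical Polycomb targets, and several long noncoding RNAs and miRNAs are encoded between them. H3K36me3 marks bodies of transcribed genes, and CpG islands are usually unmethylated.

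The cells were checked against 20 pluripotency genes. H3K4me3 had a value at 19 of them in PTC11, PTC12 and TTF1 and at 14 in TTF4. Esrrb, a nuclear receptor of the naive state, had no value in these 4 lines, and Dppa4, Dppa5a, Nr0b1, Prdm14 and Zfp42 had none in TTF4. In that order, their methylated CpG fractions in TTF4 were 0.759, 0.771, 0.734, 0.879 and 0.803. In the other lines the fractions at these genes lay between 0 and 0.312. At Pou5f1, which encodes Oct4, H3K4me3 was 4.25 and 4.61 RPKM in lines PTC11 and PTC12 and 5.56 and 4.24 in lines TTF1 and TTF4. No pluripotency gene, and none of 20 fibroblast, 20 proximal tubule or 35 listed imprinted genes, was among the 137. The 137 are 0.311% of all genes, so most lists of this size would hold none. Of 20 fibroblast genes, H3K4me3 had a value at 5 and 13 in lines PTC11 and PTC12 and 14 and 9 in lines TTF1 and TTF4. Of 20 proximal tubule genes, it had a value at 6 and 10 in lines PTC11 and PTC12 and 8 and 5 in lines TTF1 and TTF4. Over all genes listed the share with H3K4me3 was 34.4% and 45.4% in the PTC lines and 44.2% and 34.9% in the TTF lines. The part of other cells in the results was not tested. The mean methylated fraction over all genes was 0.372 and 0.482 in lines PTC11 and PTC12 and 0.379 and 0.649 in lines TTF1 and TTF4, so TTF4 stood apart before any gene was chosen.

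The sequences below are those of starts and miRNAs on which the account turns. They are RefSeq sequences on GRCm38.p6, the assembly also called mm10, which is the build of the files. The 5 promoters are shown because they represent different libraries, and their CG dinucleotides, the sites that methylation can use, are in capitals. Each begins 5′ on the strand of the gene, and the start in the files falls inside the window. Hoxb8 was marked in 3 libraries, Lhx6 in PTC11 library 1, Sp8 in PTC11 library 2 and TTF4, Raet1e in both TTF libraries, and Anks1b had the highest value, in TTF4.
Hoxb8, chr11:96281655-96281954, plus strand: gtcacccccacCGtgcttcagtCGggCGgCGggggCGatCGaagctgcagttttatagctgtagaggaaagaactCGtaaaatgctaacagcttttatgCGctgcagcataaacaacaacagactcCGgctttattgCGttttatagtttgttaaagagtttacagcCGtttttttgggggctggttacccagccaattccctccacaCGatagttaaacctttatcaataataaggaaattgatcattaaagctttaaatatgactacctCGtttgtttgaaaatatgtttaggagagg
Lhx6, chr2:36105359-36105658, minus strand: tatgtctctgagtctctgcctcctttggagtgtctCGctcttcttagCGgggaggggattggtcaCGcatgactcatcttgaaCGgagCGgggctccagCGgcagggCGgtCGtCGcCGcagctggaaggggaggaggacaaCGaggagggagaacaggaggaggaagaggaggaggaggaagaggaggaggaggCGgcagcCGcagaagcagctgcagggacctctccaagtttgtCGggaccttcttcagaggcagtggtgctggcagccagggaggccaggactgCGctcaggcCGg
Sp8, chr12:118846079-118846378, plus strand: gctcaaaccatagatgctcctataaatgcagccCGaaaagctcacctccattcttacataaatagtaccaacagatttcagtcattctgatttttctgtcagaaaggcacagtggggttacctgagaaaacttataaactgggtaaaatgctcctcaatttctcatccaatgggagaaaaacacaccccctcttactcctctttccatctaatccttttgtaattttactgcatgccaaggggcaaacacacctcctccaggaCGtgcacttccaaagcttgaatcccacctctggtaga
Raet1e, chr10:22158319-22158618, plus strand: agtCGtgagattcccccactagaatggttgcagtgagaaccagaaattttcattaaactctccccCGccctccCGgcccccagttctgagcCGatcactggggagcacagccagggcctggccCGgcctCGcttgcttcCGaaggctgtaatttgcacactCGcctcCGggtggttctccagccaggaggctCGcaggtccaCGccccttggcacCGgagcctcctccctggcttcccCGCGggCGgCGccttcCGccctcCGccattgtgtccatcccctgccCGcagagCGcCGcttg
Anks1b, chr10:90829593-90829892, plus strand: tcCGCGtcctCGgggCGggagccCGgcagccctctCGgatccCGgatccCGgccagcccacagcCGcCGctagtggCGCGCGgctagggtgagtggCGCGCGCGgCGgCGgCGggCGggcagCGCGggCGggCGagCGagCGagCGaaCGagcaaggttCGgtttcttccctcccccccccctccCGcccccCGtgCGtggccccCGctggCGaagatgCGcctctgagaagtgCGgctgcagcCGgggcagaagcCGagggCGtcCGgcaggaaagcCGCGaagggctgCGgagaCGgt
The count of CG was 45 in the Anks1b window, 21 in that of Raet1e, 16 in that of Lhx6, 13 in that of Hoxb8 and 2 in that of Sp8. CG reads the same on both strands. Of 32851 RefSeq promoter windows of this length, 43.5% held 10 or more CG, against 70.3% of 74 windows that belong to 54 H3K27me3 genes.

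Among the H3K27me3 genes were 4 Hox cluster miRNAs, whose mature 5p strands are shown because miR-196a and miR-196b come from different clusters and share a seed. The seed, bases 2 to 8, is in capitals.
mmu-miR-196a-5p of Mir196a-2: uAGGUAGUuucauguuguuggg
mmu-miR-196b-5p of Mir196b: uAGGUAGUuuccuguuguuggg
mmu-miR-10a-5p of Mir10a: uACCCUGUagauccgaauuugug
mmu-miR-615-5p of Mir615: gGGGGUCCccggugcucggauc
The seed of miR-196a and miR-196b differs from those of miR-10a and miR-615. Mir196a-2 lies in HoxC, near Hoxc9, and had H3K27me3 of 2.1 RPKM in PTC11 library 1 and 1.90 in TTF1. Mir196b lies inside the Hoxa9 entry of HoxA and had 2.77 RPKM in PTC11 library 2. A wider entry for the same miRNA, mmu-mir-196b, shared the Hoxa9 values and so also had 1.72 RPKM in TTF1. Mir10a lies inside the Hoxb4 entry and had 2.21 RPKM in PTC11 library 2, and Mir615 lies inside the Hoxc5 entry and had 2.57 RPKM in that library and 1.49 in TTF1. Mir10a, Mir615 and Mir196a-2 are each listed under 2 identifiers with the same H3K27me3 value. 9930038K12Rik, on the same strand, shares the Hoxa9 locus and values. A peak within the window around 2 starts counts for both, so the miRNA values are not independent of those of neighbouring Hox genes.

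RPKM here are read numbers scaled to the length of a peak and the size of the library, less the same quantity in the input, averaged by the authors over peaks from 2 kb before to 3 kb after the transcription start site (TSS) for H3K27me3 and H3K4me3, and over the gene body for H3K36me3. A gene without a peak in that span has no value. PTC11 library 1 had 33 genes above 0, PTC11 library 2 had 93, TTF1 had 41 and TTF4 had 11. A further 55 genes were listed at 0 in every library that gave them a value and lie just outside the rule, and 37 of these are 5S rRNA genes. Just inside it lay 13 other 5S rRNA genes, the largest value of each lying between 0.00529 and 0.475 RPKM, and 5 genes below 1 RPKM that are not 5S, namely XLOC_002549, AC238811.3, Gm13345, AC166252.1 and Gm10718. The other 119 genes reached at least 1 RPKM in a library, and 65 reached 2. Neighbouring genes can share a peak, and counting neighbours with the same values once left 123 loci. In these bulk libraries, fewer cells with the mark and less of the mark per cell cannot be told apart.

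Most genes appeared once. Of the 137, 104 were above 0 in 1 library, 25 in 2 and 8 in 3, with 0 in all 4. PTC11 library 2 alone accounted for 70. The 2 PTC libraries, which are repeats of 1 line only if the labels hold, shared 8 genes without 5S rRNA, 27.6% of the 29 in library 1 and 9.88% of the 81 in library 2. PTC11 library 1 and TTF1, of different origin, shared 13 genes, 44.8% of the 29 and 35.1% of the 37 in TTF1. PTC11 library 2 and TTF1 shared 14, which is 17.3% of the 81 and 37.8% of the 37. TTF1 and TTF4 shared 3, which is 8.11% of the 37 and 27.3% of the 11. Each PTC library thus shared more genes with TTF1 than with the other PTC library, and with neighbours counted as 1 locus these numbers were 11 and 10 loci against 7. TTF4 shared 2 loci with TTF1, 2 with PTC11 library 2 and 1, Hotair, with PTC11 library 1. In all, 88 genes were seen in PTC11 libraries alone, 22 in TTF libraries alone and 27 in both, and the libraries differed widely in how many genes they gave. Without PTC11 library 2, 67 genes would be left and 17 in place of 33 would be in more than 1 library, and without TTF1 that number would be 14.

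**Figure D1:**
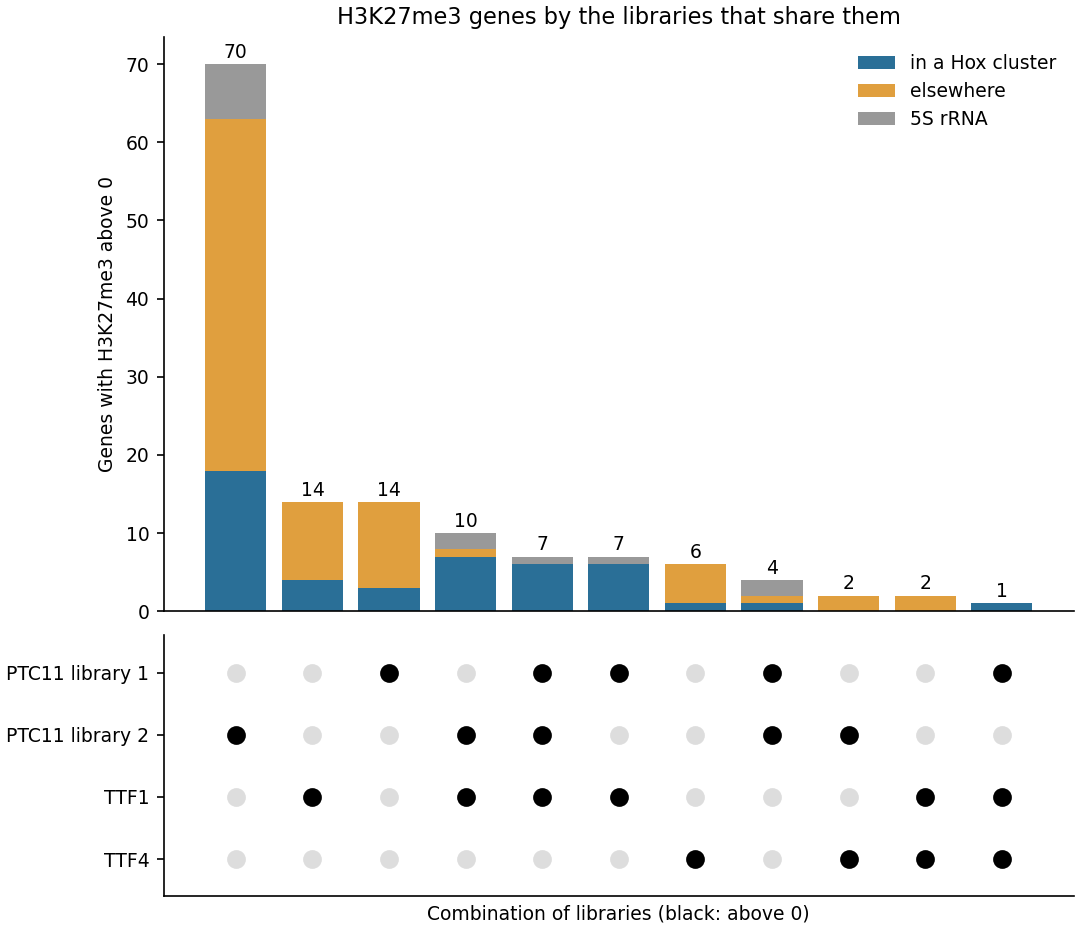
Bars count genes with H3K27me3 above 0 for each combination of libraries, marked by black dots under the bar, and colours give genes in a Hox cluster, elsewhere, or 5S rRNA. The highest bar is PTC11 library 2 alone with 70 genes, and the genes shared by more than 1 library lie largely in Hox clusters.

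The Hox clusters held 47 of the 137 genes, 34.3%, and 21 of the 27 genes seen in more than 1 library once 5S rRNA is left out. Without PTC11 library 2 they held 29. Of 78 genes listed within a cluster or 20000 bp of it, 60.3% were H3K27me3 genes, against 0.311% of all genes. The cluster HoxB (chr11:96174316-96388256) held 16 of 22 genes, HoxA (chr6:52135367-52280880) 12 of 22, HoxC (chr15:102901103-103056843) 11 of 16 and HoxD (chr2:74648310-74785143) 8 of 18. Of the 39 Hox genes themselves 22 had a value, 9 of 10 in HoxB, 5 of 11 in HoxA, 5 of 9 in HoxC and 3 of 9 in HoxD. By library, PTC11 library 2 had 16 Hox genes, TTF1 had 11, PTC11 library 1 had 7 and TTF4 had 0.

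Hoxa3, Hoxb8 and Hoxc11 were the Hox genes seen in 3 libraries. Hoxb8, with its start at the promoter shown above, had 2.59 RPKM in PTC11 library 1, 1.71 in PTC11 library 2 and 1.51 in TTF1. Hoxa3 and the overlapping Gm20653 had 2.61, 3.09 and 1.84 RPKM in the same libraries. Hoxc11, a posterior gene, had 2.12, 2.32 and 3.74 RPKM there, the last of these being the highest value of TTF1. For each of these 3 genes the TTF1 value lay outside the range of the PTC11 libraries, below it at Hoxb8 and Hoxa3 and above it at Hoxc11, and none had a value in TTF4.

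Paralogs of group 11, which take part in kidney, limb and vertebral patterning, were marked in all 3 clusters that have one. Hoxd11 had 2.62 RPKM in PTC11 library 1 and 2.06 in TTF1, and Hoxa11 had 2.07 in PTC11 library 2. Among the other posterior genes, Hoxd10 had 2.00 RPKM in PTC11 library 1 and 2.31 in TTF1, Hoxc12 had 1.90 in PTC11 library 2 and 2.33 in TTF1, and Hoxd12 had 1.86 in PTC11 library 2. Hoxa9 had 2.77 RPKM in PTC11 library 2 and 1.72 in TTF1, Hoxc9 had 1.91 in TTF1 and Hoxb9 had 1.71 in PTC11 library 2. No gene of group 13 or group 1 other than Hoxb1, at 1.27 RPKM in PTC11 library 2, had a value.

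In the middle of the clusters, Hoxb6 had 1.48 RPKM in PTC11 library 1 and 1.33 in TTF1, and Hoxb4 had 2.55 and 2.15 in the 2 PTC11 libraries. Hoxb3 had 3.20 RPKM and Hoxb5 had 2.44, both in TTF1 and in no other library. PTC11 library 2 alone gave Hoxc8 at 2.93 RPKM, Hoxa7 at 2.14, Hoxc5 at 1.97, Hoxa2 at 1.92, Hoxb2 at 1.78 and Hoxb7 at 1.34. Evx2, a homeobox gene at the end of HoxD, had 1.60 RPKM in this library.

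**Figure D2:**
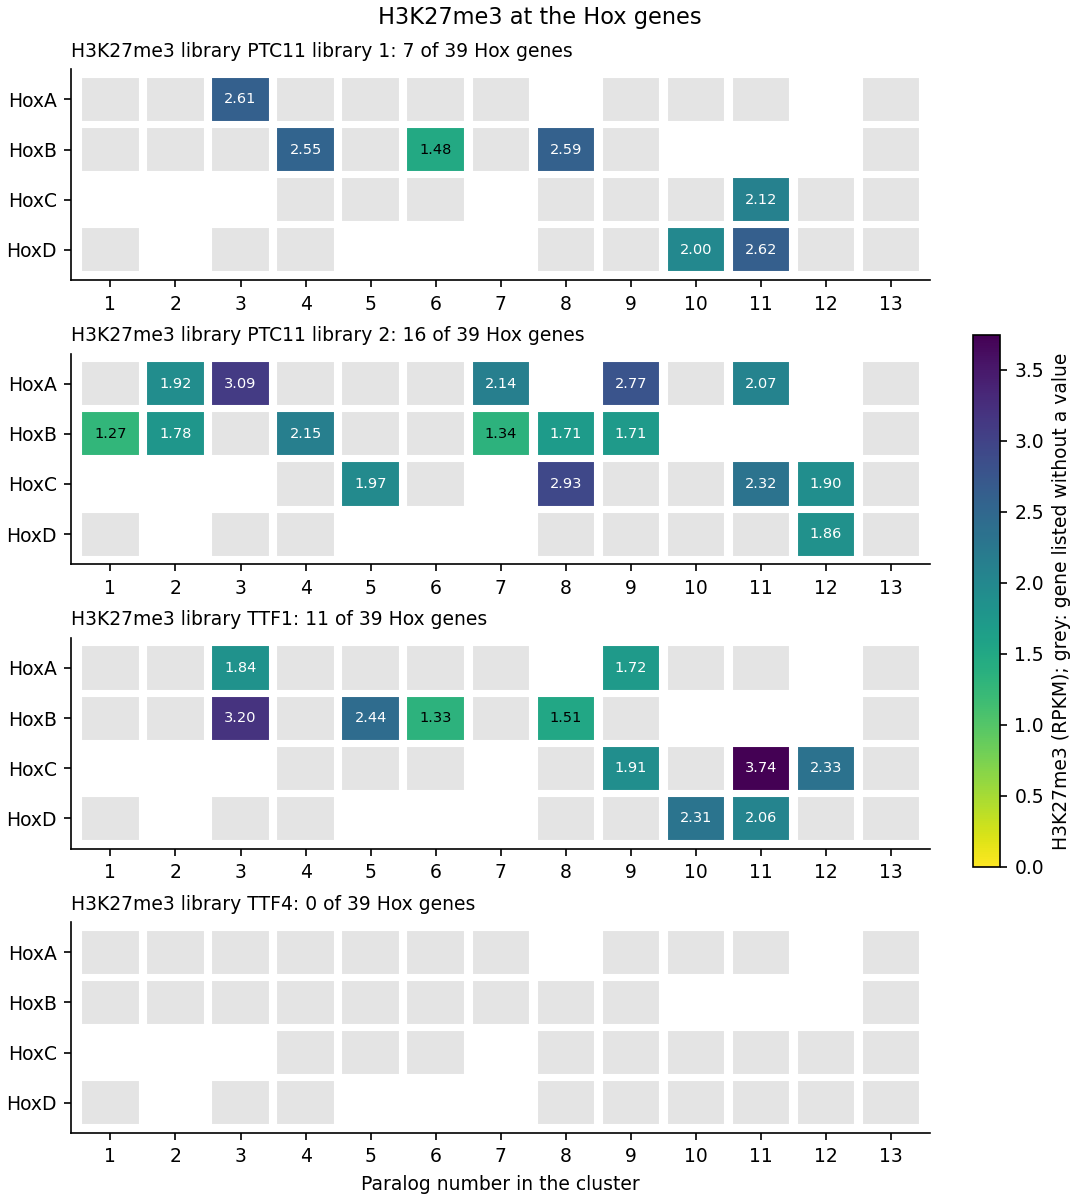
Each panel is 1 library, rows are the Hox clusters, columns the paralog number, and coloured squares give H3K27me3 in RPKM while grey squares are genes without a value. PTC11 library 2 fills 16 of 39 squares and TTF4 fills 0, and Hoxa3, Hoxb8 and Hoxc11 are coloured in the other 3 panels.

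Noncoding genes of the clusters were among those most often shared. Hotair, a HoxC long noncoding RNA studied for its binding to Polycomb proteins, was the Hox cluster gene with values in both TTF libraries: 2.18 RPKM in PTC11 library 1, 1.72 in TTF1 and 2.36 in TTF4. It had no H3K4me3 value in the 4 lines, and its methylated fraction was 0.346 and 0.456 in lines PTC11 and PTC12 and 0.428 and 0.379 in lines TTF1 and TTF4. The antisense gene 0610040B09Rik, named Hoxb5os in GENCODE, had 2.06, 3.00 and 1.71 RPKM in PTC11 library 1, PTC11 library 2 and TTF1. The HoxA gene 5730596B20Rik, listed as protein coding, had 2.60, 1.33 and 1.63 RPKM in these libraries. Gm14396 of HoxD had 3.12 RPKM in PTC11 library 1 and 1.64 in TTF1, and Gm11536 of HoxB had 1.5 in PTC11 library 2 and 2.72 in TTF1. Gm15053, named Hottip in GENCODE and known for its tie to the posterior HoxA genes, had 2.1 RPKM in PTC11 library 1. Hoxb3os, Gm11535, 5730446D14Rik and Gm20440 were seen in PTC11 library 2, Gm20398 and Gm14424 in PTC11 library 1, XLOC_010706 in TTF1 and XLOC_033849 in TTF4.

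**Figure D3:**
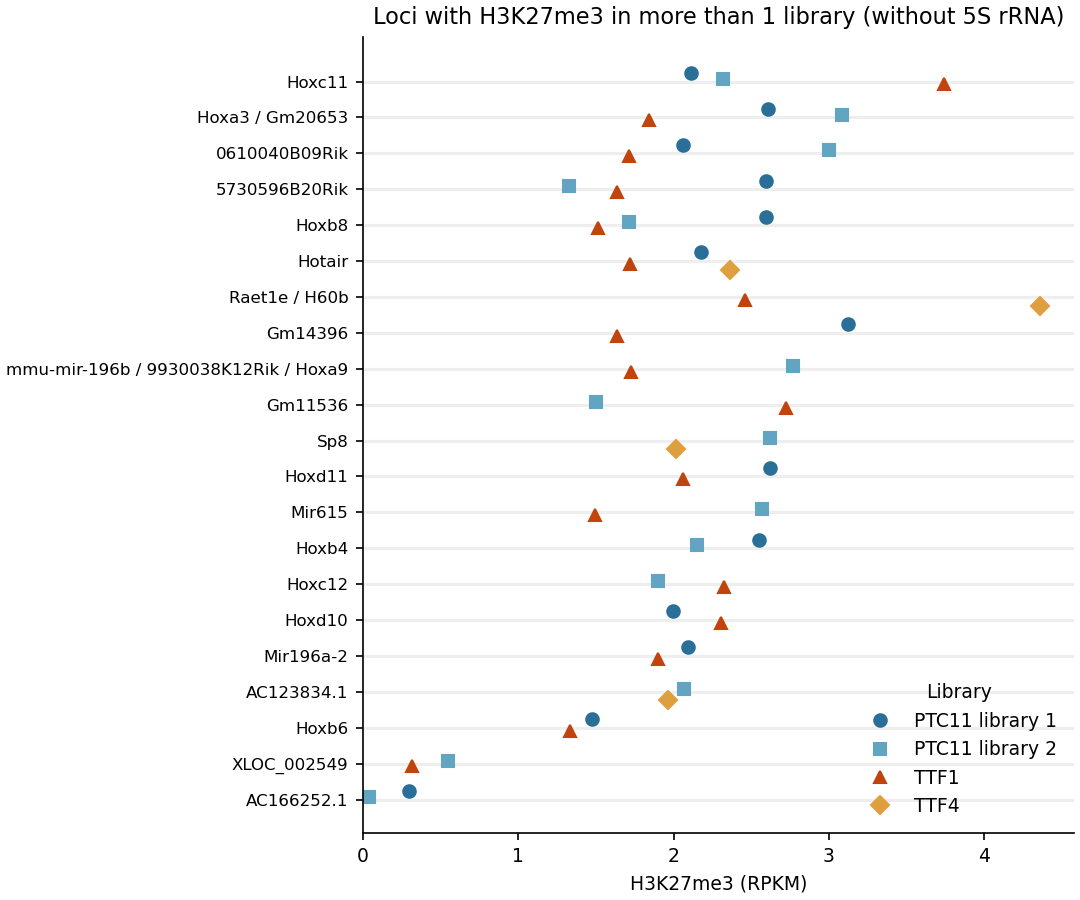
Each row is 1 of 21 loci with H3K27me3 above 0 in more than 1 library, without 5S rRNA, and points give RPKM by library. Hoxc11 is highest in TTF1, Raet1e with H60b is highest in TTF4, and Hotair has a point in PTC11 library 1, TTF1 and TTF4.

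Outside the Hox clusters stood 77 genes that are not 5S rRNA. From a list of 136 regulators of development that are known Polycomb targets, 8 were H3K27me3 genes, 5.88% against 0.311% of all genes. H3K4me3 had a value at 111 and 133 of the 136 in lines PTC11 and PTC12 and 131 and 118 in lines TTF1 and TTF4. Most of these known targets thus had no H3K27me3 value above 0 in any library, and whether the mark was absent there was not tested. Shh, the Sonic hedgehog signal of neural tube and limb patterning, had 4.43 RPKM in PTC11 library 1, the highest value of that library. Dlx1, a homeobox gene of forebrain interneurons, had 3.92 RPKM and Hmx2, a homeobox gene of the inner ear, had 3.28, both in PTC11 library 2. Meis1, a Hox cofactor, had 2.53 RPKM and Lhx5 had 2.05 in the same library, and Lhx1, a LIM homeobox gene needed for kidney formation, had 1.65 in PTC11 library 1. Wnt10a, a secreted signal, had 1.64 RPKM and Gata3, a transcription factor of the nephric duct, had 1.56, both in TTF1. Gata3 was also the single H3K27me3 gene among 9 kidney development genes. These 8 genes each appeared in 1 library, and 4 would be left without PTC11 library 2.

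Other regulators were found that are not on this list. Lhx6, a LIM homeobox gene of interneurons, had 3.43 RPKM in PTC11 library 1. Six3os1, a noncoding neighbour of the eye and forebrain gene Six3, had 3.99 RPKM in PTC11 library 2. Tfap2b, an AP-2 factor of neural crest and kidney tubules, had 2.58 RPKM in TTF1. Pou4f1, a POU factor of sensory neurons, had 3.49 RPKM in TTF4. Sp8, a zinc finger gene of limb outgrowth, had 2.62 RPKM in PTC11 library 2 and 2.02 in TTF4, and it and AC123834.1 were the genes shared by these 2 libraries. In TTF4 the TSS of XLOC_016859, at 2.70 RPKM, lay 200 bp from that of Barx1, a homeobox gene without a value of its own. Tcf21 and Vgll2 had 1.73 and 2.58 RPKM in TTF4.

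Of the 107 H3K27me3 genes that are on neither the Hox nor the regulator list, 32 had their TSS within 10 kb of the TSS of a gene that is, and 10 of these were outside the Hox clusters. Among these 10 were XLOC_001880 beside Wnt10a, 9230102O04Rik beside Gata3, Dlx1as, Dlx6as1, Dlx6as2 and Gm11378 near Foxf2. RP23-155H5.2, named Fendrr in GENCODE and transcribed away from the lung and gut factor Foxf1, had 2.59 RPKM in PTC11 library 1. Gm5607, named Sox1ot in GENCODE, was seen in PTC11 library 2.

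The remaining names follow for completeness. PTC11 library 1 alone gave BC061194, Gbx1, 2210019I11Rik (Plut in GENCODE), Klf14, Insl3, Igdcc3 and the overlapping AC161366.1. TTF1 alone gave Gm4895, Onecut3 and XLOC_035361. PTC11 library 2 alone gave 8430419K02Rik, Ikzf3, Gm9804, Npas3, Nrn1, Gm9979, AC238811.3, Pigz, H2-Q7, Gm20392, Hpse2, Gm13256, St8sia6, Gm13345, Gm13425, Prdm12, Gm13429, Sp9, D430041D05Rik, Gm14285, Crh, 9130410C08Rik, Gm13063, XLOC_045116, Nkx1-1, A930033C23Rik, Ntrk3, Gm9885, Sox6, AC119275.1, XLOC_059613, Rasd2, Plcg2, Foxl1 (also listed as FOXL1), Gm10718 and XLOC_063391. XLOC_002549 and AC166252.1 were in 2 libraries each at under 1 RPKM.

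The highest value of all was at Anks1b, which encodes an ankyrin repeat protein of synapses, at 4.58 RPKM in TTF4. Raet1e and H60b, which encode stress-induced ligands of the immune receptor NKG2D and share a start region, had 2.46 RPKM in TTF1 and 4.36 in TTF4. They were the genes seen in both TTF libraries and in no PTC11 library, and being 1 locus they count once. H3K4me3 there was 2.40 and 2.88 RPKM in lines PTC11 and PTC12 and 4.29 and 3.00 in lines TTF1 and TTF4. The log2 difference at Raet1e, TTF minus PTC, was 0.34 with a limma adjusted p of 1.

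Several H3K27me3 genes are repeated sequence or unannotated loci, and their reads are uncertain. The 5S rRNA genes lie side by side on chromosome 8 and are near-identical copies. XLOC_063391 had 4.33 RPKM in PTC11 library 2, the highest value of that library, with 7 CpGs within 1000 bp of its TSS. XLOC_035361 had 3.24 RPKM in TTF1, and its H3K4me3 was 13.3 and 18.0 RPKM in lines PTC11 and PTC12 and 12.2 and 15.2 in lines TTF1 and TTF4, a mean exceeded among H3K27me3 genes by that of Gm10718 alone. Gm10718 had 0.0354 RPKM in PTC11 library 2, while its H3K4me3 was 37.8 RPKM in PTC11, 0 in PTC12 and 71.1 in TTF4 with no value in TTF1.

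Most of these genes also carried H3K4me3. Without 5S rRNA, 120 of 124 had an H3K4me3 value in at least 1 line, 96.8%, against 49.5% of all genes listed. In each line the share was higher than over all genes, 60.5% against 34.4% in PTC11, 92.7% against 45.4% in PTC12, 92.7% against 44.2% in TTF1 and 78.2% against 34.9% in TTF4. Among protein-coding genes alone the excess was smaller. Of 67 such H3K27me3 genes, 65 had a value in at least 1 line, against 70.1% of protein-coding genes listed. The gap was narrowest in PTC11, at 64.2% against 56.9%, and widest in PTC12, at 95.5% against 67.5%. H3K4me3 was not compared at equal CpG number. The H3K4me3 level of the 124 genes was lower than over all genes with a value. Medians were 3.13 against 3.69 RPKM in PTC11, 3.96 against 4.59 in PTC12, 4.25 against 5.01 in TTF1 and 3.00 against 3.65 in TTF4. After Gm10718, the protein-coding genes with the highest mean H3K4me3 were Igdcc3 and Pou4f1. Igdcc3, which encodes a surface protein of the immunoglobulin family, had 3.38, 6.86, 6.69 and 3.47 RPKM in PTC11, PTC12, TTF1 and TTF4. Pou4f1 had 3.87, 5.31, 6.47 and 3.57 RPKM in the same lines. In both genes PTC12 and TTF1 lay above PTC11 and TTF4, as they did in the medians over all genes with a value.

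Within a single line both marks were found together to different degrees. In TTF1, 34 of 37 H3K27me3 genes had H3K4me3 in the same line, 91.9% against 44.2% of all genes, and the 3 without it were Hoxb3, Hotair and Gm14396. In TTF4 it was 10 of 11, 90.9% against 34.9%, all but Hotair. In PTC11 it was 14 of 29 for library 1, 48.3%, and 52 of 81 for library 2, 64.2%, against 34.4% of all genes. If library 2 is PTC12, the same line is PTC12, where 75 of the 81 had H3K4me3, 92.6% against 45.4% of all genes. Shh, Hoxc11, Hoxd11, Hoxb4 and Hoxb6 had H3K27me3 in PTC11 library 1 and no H3K4me3 value in PTC11, whereas Hoxc11 had 4.66 RPKM of H3K4me3 in PTC12, 3.84 in TTF1 and 2.93 in TTF4. ChIP-seq on a population does not show whether both marks lie on 1 chromosome.

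H3K36me3 had a value in at least 1 line at 121 of the 124 genes, 97.6%, against 70.9% of all genes listed. Among protein-coding genes it was 67 of 67 against 88.8%. Median levels were above those over all genes in each line, and they differed more within each origin than between origins. Why a mark of transcribed bodies was found at these genes was not tested. Medians over the 124 genes were 1.93 and 4.42 RPKM in lines PTC11 and PTC12 and 1.28 and 4.41 in lines TTF1 and TTF4, beside 1.60, 3.88, 1.18 and 4.01 over all genes with a value. Hoxb9, chosen as an example after its values were seen, had 1.99 and 6.71 RPKM in lines PTC11 and PTC12 and 1.74 and 7.26 in lines TTF1 and TTF4. PTC12 and TTF4 lay above PTC11 and TTF1 in both the H3K27me3 genes and all genes.

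**Figure D4:**
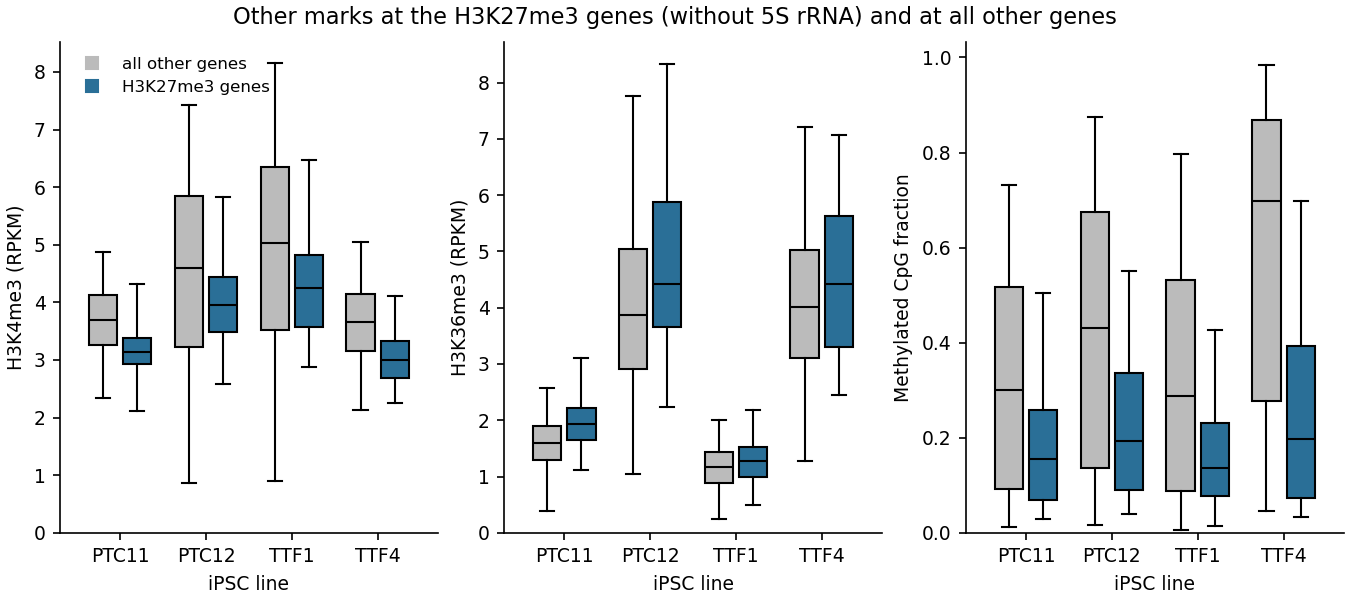
Boxes give the median and quartiles, with whiskers at the 5th and 95th percentiles, for H3K27me3 genes without 5S rRNA (blue) and all other genes with a value (grey) in each line. Blue medians lie below grey ones for H3K4me3 and methylation and above them for H3K36me3 in each of the 4 lines, and for methylation the gap is widest in TTF4.

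CpG methylation around the start was low at most H3K27me3 genes. Without 5S rRNA, the median fraction was 0.155 and 0.192 in lines PTC11 and PTC12 and 0.136 and 0.197 in lines TTF1 and TTF4, beside 0.300, 0.430, 0.286 and 0.698 over all genes listed with a fraction. The share of genes under 0.2 was 60.6% and 52.4% in lines PTC11 and PTC12 and 67.0% and 51.0% in lines TTF1 and TTF4, against 39.9%, 32.7%, 41.0% and 18.4% of all genes. Thus TTF4 exceeded the other lines over all genes by far more than at the H3K27me3 genes. Over the 22 Hox genes the medians were 0.0811, 0.115, 0.113 and 0.150 in PTC11, PTC12, TTF1 and TTF4.

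The number of CpGs moved with this result. Within 1000 bp of the TSS the 124 genes had a median of 78 CpGs, against 29 over all genes. Among genes with at least 50 CpGs there, H3K27me3 genes had median fractions of 0.133 and 0.150 in lines PTC11 and PTC12 and 0.124 and 0.156 in lines TTF1 and TTF4, and all other genes 0.0788, 0.114, 0.0799 and 0.231. At this CpG number the H3K27me3 genes were therefore the more methylated in PTC11, PTC12 and TTF1 and the less methylated in TTF4. Among genes with fewer than 50 CpGs, the 20 H3K27me3 genes with a fraction in every line had a median of 0.377 in TTF4, against 0.830 for other genes.

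The least methylated protein-coding H3K27me3 genes were Lhx1, Hoxb7 and Nkx1-1. Lhx1 had fractions of 0 and 0.0261 in lines PTC11 and PTC12 and 0.0211 and 0 in lines TTF1 and TTF4. Hoxb7 had 0.0200, 0.0279, 0.0486 and 0.0100 in these lines, and Nkx1-1, a homeobox gene, had 0.0252, 0.0395, 0.0154 and 0.0483. Anks1b, with the CpG-dense promoter shown above, had 0.0235, 0.0296, 0.0422 and 0.0478. Other H3K27me3 genes were methylated in some lines: Ntrk3, a neurotrophin receptor gene, had 0.524 and 0.851 in lines PTC11 and PTC12 and 0.319 and 0.896 in lines TTF1 and TTF4, and Insl3, a hormone of the testis, had 0.273, 0.369, 0.367 and 0.862. Sox6, a SoxD factor of cartilage and muscle, went the other way, with 0.272, 0.408, 0.156 and 0.0159. Ntrk3, Insl3 and Sox6 were named after their values were seen.

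**Figure D5:**
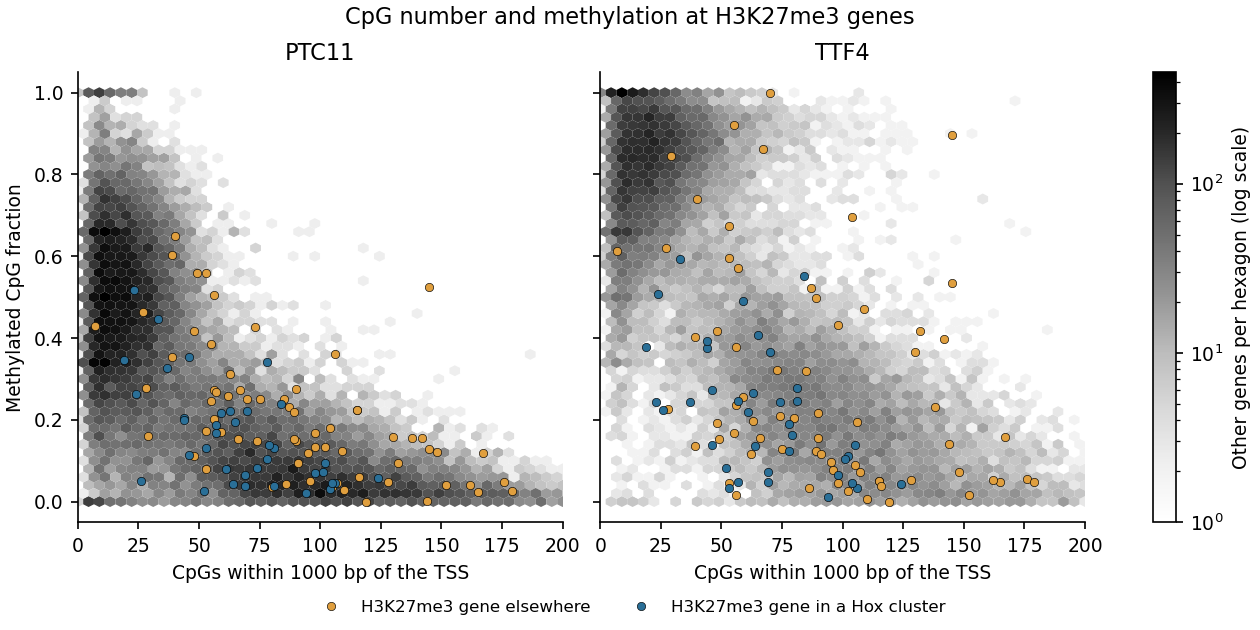
Points are H3K27me3 genes without 5S rRNA, blue in Hox clusters and orange elsewhere, over all other genes in grey hexagons, with CpGs within 1000 bp of the TSS on the x axis (drawn to 200) and methylated fraction on the y axis for PTC11 and TTF4. In TTF4 the grey genes with few CpGs lie near the top. The TTF4 median of all points, most of them with more CpGs, was 0.197. Among genes with fewer than 50 CpGs it was 0.377 for H3K27me3 genes and 0.830 for other genes.

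The question whether PTC and TTF lines differ at these genes was tested on the marks the choice did not use. Each mark was fitted with limma over all genes with a value in all 4 lines, on log2(RPKM + 1), which understates changes of low values, or on the fraction less the mean of the line. For H3K4me3, 78 of the 137 genes could be tested and 2 had an adjusted p under 0.05, beside 0.481% of the 13709 genes tested. Both are 5S rRNA genes at low levels. ENSMUSG00000096406 had 0 and 0.0659 RPKM in the PTC lines and 0.0161 and 0.233 in the TTF lines, a log2 difference, TTF minus PTC, of 0.12 (SE 0.026, limma adjusted p 0.0015). ENSMUSG00000096132 had 0.165 and 0.0410 RPKM in the PTC lines and 0.0592 and 0 in the TTF lines, a log2 difference of -0.097 (SE 0.025, limma adjusted p 0.023). The PTC and TTF values overlapped at both genes, and neither call held when the variance trend was left out. Of the 68 testable genes that are not 5S rRNA, 0 had an adjusted p under 0.05 and 0 an unadjusted p under 0.05 in limma. Over all genes tested for H3K4me3, 0.977% had an unadjusted p under 0.05 in limma, so few or none would be found among 68. The PTC and TTF values did not overlap at 6 of these 68 genes, beside 8.21% of all genes tested. Leaving out PTC11 or PTC12 called XLOC_002549, where 59 and 76 of all 13709 genes were called, and leaving out TTF1 or TTF4 called 0 of the 68, where 108 and 88 of all genes were called.

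The H3K36me3 fit called 0 of 99 testable genes, beside 0.112% of 17039. The median SE of the log2 difference at these 99 genes was 1.08. Differences that are not large could not be called, so 0 calls does not show that the origins were alike. In limma 1 of the 99 had an unadjusted p under 0.05, which is 1.01% against 0.681% of all genes. The origins did not overlap at 4 of the 93 genes that are not 5S rRNA, beside 3.50% of all genes. The methylation fit called 0 of 102 genes, beside 0.00395% of 50657, with 7 at an unadjusted p under 0.05, which is 6.86% against 4.72% of all genes. The origins did not overlap at 26 of 102 genes, beside 27.8% of all genes. After the line means were subtracted, 83 of 102 fractions were lower in TTF, 81.4% beside 53.0% of all genes. The median difference was then -0.082 against -0.010 over all genes. The subtracted mean was largest in TTF4, at 0.649, so genes with low fractions in every line come out lower in TTF. Lhx1, with deposited fractions of 0, 0.0261, 0.0211 and 0 in PTC11, PTC12, TTF1 and TTF4, had a centred difference of -0.090. On the fractions as deposited 46 of 102 were lower, 45.1% beside 24.5% of all genes, and the median difference was 0.0055 against 0.077. Without TTF4, 39 of 102 centred fractions were lower, 38.2% beside 45.1% of all genes. Without TTF1, limma called 9 of the 102, where it called 1020 of all 50657 genes. AC119275.1 had the smallest methylation p, with deposited fractions of 0.558 and 0.475 in lines PTC11 and PTC12 and 0.185 and 0.153 in lines TTF1 and TTF4 and a centred difference of -0.43 (SE 0.14, limma adjusted p 0.64). With 2 lines per origin, a permutation over lines could not give a two-sided p below 0.333.

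Genes of the other lists were tested in the same fits. Over all genes tested these fits called 0.481% for H3K4me3, 0.112% for H3K36me3 and 0.00395% for methylation. At those shares lists of this size would give few calls or none, so 0 calls does not set them apart from other genes. Of the 39 Hox genes 22 could be tested for H3K4me3, 37 for H3K36me3 and 39 for methylation, and 0 were higher and 0 lower in TTF in each. Of the 136 regulators 102, 127 and 136 could be tested, again with 0 in each direction. Of 31 genes of Polycomb complexes and H3K27 demethylases, such as Ezh2 and Kdm6a, 26, 26 and 31 were tested with 0 in each direction. None of the 30 listed in the histone table was an H3K27me3 gene, beside 0.311% of all genes.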

How the data were processed

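Per the labels and the methods, the authors aligned ChIP-seq reads to mm10 with Bowtie2 2.1.0, called peaks in each library against input with MACS2 2.0.10 (broad peaks for H3K27me3), counted reads with bedtools 2.17.0 and deposited input-subtracted RPKM per gene, where H3K36me3 was averaged along gene bodies and the other marks near the TSS. They deposited CpG methylation as a fraction per gene around the TSS. The methods state a common read number for the ChIP-seq libraries, but the tables used here hold no read counts or coverage per gene, and aligned reads and signal tracks were not used here, so precision rests on the spread between lines, which may be partly technical. Methylation was joined to 117 of 137 genes, 116 by Ensembl identifier and 1 by symbol. Gene types come from GENCODE M21, which matched 116. Tests used limma 3.58.1 (R 4.3.3; eBayes with a trend, pseudocount 1) with Benjamini-Hochberg adjusted p-values across every gene that had a value in all 4 lines, and the code was tested on simulated data. CpGs were counted with pyfaidx 0.9.0.4 in Python 3.11.15. Members and lists were chosen with earlier results of these data known. Genes named by rule were in 3 or more libraries, the 5 highest per library, on a list, with adjusted p under 0.05, or the 3 protein-coding genes with the highest H3K4me3 or lowest methylation. All other members were named for completeness.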

Additional observations from a re-analysis of the deposited data

How the results depend on the processing

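No paired analysis was possible because the labels do not give the animal of origin of the PTC lines (11 and 12) or the TTF lines (1 and 4). The number of H3K27me3 genes was 65 at a minimum of 2 RPKM and ranged from 67 to 131 when 1 library was left out, 67 being without PTC11 library 2. The 47 genes in Hox clusters fell to 29 without that library. For H3K4me3, the calls among H3K27me3 genes were 2 as reported, 6 with a pseudocount of 0.1 (102 of 13709 genes), and 0 with a mean of at least 1 RPKM, with quantile normalization, with genes without a value set to 0, without the variance trend, or without 5S rRNA, the last chosen after seeing the data. Leaving out 1 line gave 2 to 4 calls, with 59 to 108 among all genes. The difference at ENSMUSG00000096406 turned to -0.023 without TTF4 and was 0.26 without TTF1. Outside 5S rRNA, XLOC_002549 was called without PTC11 or without PTC12. For H3K36me3 each alternative gave 0 calls. For methylation leaving out 1 line gave 0 to 9 calls: without TTF1 there were 9 (AC119275.1, 9230102O04Rik, Dlx6as2, Foxl1, Gm14424, Hoxb2, Hoxb3, Shh and Sox6), where 1020 of 50657 genes were called, and the lone TTF4 is then assumed to vary like the PTC lines. The cause was not tested. The median levels of the 3 other marks moved by less than the spread between lines with neighbours as 1 locus, at 1 RPKM or more, and without 5S rRNA, the alternatives run for them.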
